A study of Mus musculus with 40 samples.

Results

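Cmya5, the gene of the muscle protein myospryn, was followed across 20 mouse hearts and 40 sequencing libraries. It is 1 of the 23420 gene symbols counted in every library, and its counts were read by that symbol. The gene was chosen for its strong loss in transgenic hearts in both kinds of library, so the genotype difference is given below as a description, without a test. All mice were of the FVB/N strain. They either carried a transgene that overexpresses the microRNA miR-378a (TG) or were non-transgenic (ntg), and they had either 2 weeks of transverse aortic constriction (TAC), which narrows the aorta and overloads the left ventricle, or a sham operation. There were 7 TG TAC, 7 ntg TAC, 3 TG sham and 3 ntg sham hearts. By the labels each animal was male and aged 12 weeks, although the text of the series allows for a span of ages. The promoter that drives the transgene and the number of founder lines are not given in the sources used here.

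Each heart gave 2 libraries, made from frozen sections of the heart with the right ventricle taken off. One was made from polyadenylated RNA (mRNA). The other was made from RNA that came down with an antibody against Argonaute 2 (Ago2), the protein that carries a microRNA to its target messages in the RNA-induced silencing complex (RISC). A message that microRNAs hold can be caught in the RISC library, and a message that they destroy can become scarce in both. Scarcity in both libraries does not by itself tell why a message is scarce. The labels do not say more about the animals than their number within a group, so the spread between hearts is the only error that the values below carry.

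Depth over all libraries ran from 9.98 M to 25.5 M gene counts in mRNA and from 7.55 M to 25.4 M in RISC. The ribosomal transcript Rn45s took 5.34 to 11.3% of gene counts in mRNA and 48.5 to 62.3% in RISC libraries. The biological coefficient of variation, the spread between hearts of a group that edgeR estimates, was 12.9% in mRNA and 16.6% in RISC.

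Myospryn is a very large protein of heart and skeletal muscle. Its C-terminal end carries a B-box coiled coil, fibronectin type III repeats and a SPRY domain, the layout of the tripartite motif family. It binds dysbindin, desmin, alpha-actinin and titin at the sarcomere and the costamere, anchors a regulatory subunit of protein kinase A, and binds and restrains the phosphatase calcineurin. In cardiomyocytes it also holds the junctions between transverse tubules and the sarcoplasmic reticulum, called dyads, where the ryanodine receptor releases calcium. The transcription factor MEF2A is known to switch the gene on. The microRNA that the transgene overexpresses is abundant in heart and lies in an intron of the gene of the metabolic coactivator PGC-1 beta.

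Cmya5 lies on chromosome 13 of mouse build mm10, from 93040715 to 93144724 on the minus strand, in the gene models that the authors deposited. It spans 104 kb and has 13 exons with 11848 bases in all, of which 11028 are coding, for 3676 codons with the stop. Exon 2 alone holds 9310 bases, 78.6% of the exon sequence. A pair of genes on the opposite strand, A630019I02Rik and Gm4814, lie inside the span and share 2451 and 119 exon bases with it. The libraries were not strand-specific, so reads of both strands in those bases cannot be told apart, while 9278 exon bases of Cmya5 are shared with no gene. Neither opposite gene had many counts of its own, between 0 and 11 per library for A630019I02Rik and between 0 and 5 for Gm4814.

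The promoter window is shown because it is the control region of the gene whose message was lost. It runs from 250 bases before the RefSeq start of the gene to 50 bases after it, at chr13:93144675-93144974 on the minus strand of GRCm38.p6, the assembly behind mm10, and is printed 5′ to 3′ with motif matches in capitals.
Cmya5 promoter: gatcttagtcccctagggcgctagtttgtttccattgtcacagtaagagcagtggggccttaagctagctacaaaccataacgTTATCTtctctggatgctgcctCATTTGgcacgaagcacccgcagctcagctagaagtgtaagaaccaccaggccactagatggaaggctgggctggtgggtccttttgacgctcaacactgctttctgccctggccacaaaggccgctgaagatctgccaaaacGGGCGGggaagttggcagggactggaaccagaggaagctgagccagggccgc
Both strands were searched for 6 motifs, the matches do not overlap each other, and distances are to the first base of a match. The GATA motif AGATAA was found on the opposite strand, read here as TTATCT, 167 bases before the start. An E-box, CANNTG, was found as CATTTG 145 bases before it. A GC box, GGGCGG, lay 2 bases before it. No TATA box (TATAAA), MEF2 consensus or CArG box was found in this window. Of 32851 RefSeq promoter windows of the same length, 11.2% hold the GATA motif, 72.3% the E-box and 35.7% the GC box, while 13.6% hold the TATA box, 3.19% the MEF2 consensus and 1.63% the CArG box. These matches are descriptions of the letters only.

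In mRNA, TG hearts held far less Cmya5 message than ntg hearts, both after sham surgery and under pressure overload. Levels are counts-per-million values (CPM) over all gene counts of a library, scaled between libraries of 1 kind by the TMM method. In TAC hearts Cmya5 ran from 163 CPM over a median of 182 CPM to 216 CPM in the 7 TG hearts, against 685 CPM over a median of 837 CPM to 905 CPM in the 7 ntg hearts. In sham hearts it stood at 197, 211 and 155 CPM in the 3 TG hearts, against 970, 982 and 973 CPM in the 3 ntg hearts. The highest TG heart lay far below the lowest ntg heart in both operations, and the genotypes did not overlap. How many of all genes part the genotypes in this way was not counted. The log2 fold change of TG over ntg was -2.08 (SE 0.08) in TAC hearts, which leaves 23.6% of the ntg level, and -2.38 (SE 0.13) in sham hearts, which leaves 19.3%. Fewer cells that make the message and less message per cell cannot be told apart in whole tissue.

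The RISC libraries gave the same picture. In TAC hearts Cmya5 ran from 137 CPM over a median of 179 CPM to 210 CPM in the TG libraries, against 547 CPM over a median of 716 CPM to 759 CPM in the ntg libraries. In sham hearts it stood at 181, 196 and 184 CPM in the TG libraries, against 662, 956 and 886 CPM in the ntg libraries. No TG library reached the level of any ntg library, and the share of all genes with such a gap was not counted. The log2 fold change was -1.92 (SE 0.09) in TAC hearts, or 26.3% of the ntg level, and -2.16 (SE 0.14) in sham hearts, or 22.4%.

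**Figure D1:**
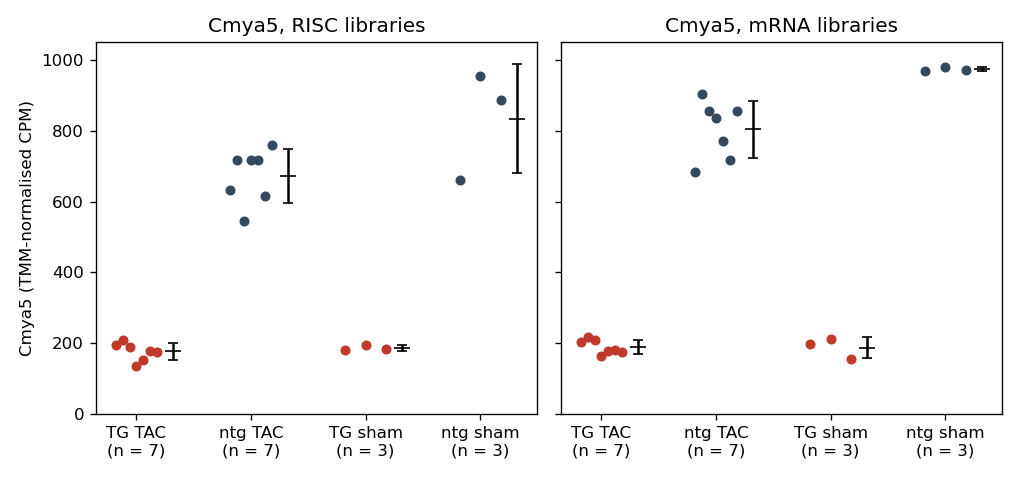
Cmya5 level in CPM (y axis, from 0) by group, in RISC libraries on the left and mRNA libraries on the right. Each point is a heart, and the black bar beside a group is its mean with SD (n = 7 per TAC group, n = 3 per sham group); all TG points lie at or below 216 CPM and all ntg points at or above 547 CPM.

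The spread between hearts was small beside this difference. In mRNA the mean was 190 ± 20.2 CPM in TG TAC and 804 ± 81.0 CPM in ntg TAC hearts (SD, n = 7 each), and 188 ± 29.1 CPM in TG sham and 975 ± 6.34 CPM in ntg sham hearts (SD, n = 3 each). The coefficient of variation was thus 10.6% in TG TAC, 10.1% in ntg TAC, 15.5% in TG sham and 0.650% in ntg sham hearts. The very tight ntg sham group was not tight in RISC, where its libraries varied by 18.4%, against 4.31% in the TG sham libraries. Counts were not the limit, since Cmya5 had between 1726 and 14209 counts per mRNA library and between 2169 and 18641 per RISC library.

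The rank of the loss was also read. Of 14141 genes tested in mRNA, 11.8% were called lower in TG TAC than in ntg TAC hearts and 9.41% lower in TG sham than in ntg sham hearts. A call here means a Benjamini-Hochberg adjusted p below 0.05 in edgeR's quasi-likelihood test over all genes. In RISC, of 13451 genes tested, 7.46% were called lower in TG TAC and 3.10% in TG sham libraries. Counted from the most negative log2 fold change, Cmya5 was at place 9 in TAC and 80 in sham hearts for mRNA, and at place 14 in TAC and 44 in sham hearts for RISC. Among 13273 genes present in both sets, 23 were lower by more than 2-fold in all 4 comparisons, and Cmya5 ranked 4 by the smallest of its 4 losses. The CPM that went missing was 614 in TAC hearts and 787 in sham hearts, at places 14 and 17 among all genes. Per kilobase of exon, Cmya5 stood at 16.0 ± 1.71 CPM per kb in TG TAC and 67.9 ± 6.84 in ntg TAC hearts, and at 15.8 ± 2.46 in TG sham and 82.3 ± 0.535 in ntg sham hearts (SD, n = 7 and n = 3). On that scale its mean place by level was 3227 in TG TAC against 845 in ntg TAC hearts, and 3315 in TG sham against 757 in ntg sham hearts. These places describe a gene that was picked for its loss.

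Markers of several cell types were measured beside Cmya5. Their counts of called genes in mRNA stand beside 25.3% of all genes called in TAC and 18.6% in sham hearts, in either direction. The 8 cardiomyocyte markers (Myh6, Tnnt2, Tnni3, Actc1, Myl2, Myl3, Tnnc1 and Mybpc3) were all present in every group. Their summed mRNA level ran from 81248 to 88369 CPM in TG TAC and from 80088 to 89279 CPM in ntg TAC hearts, with 2 of 8 called higher and 1 lower, and from 80987 to 96667 CPM in TG sham and from 104285 to 110929 CPM in ntg sham hearts, with 1 higher and 3 lower. The 7 adipocyte markers summed to 6.20 to 27.3 CPM in TG sham and to 202 to 296 CPM in ntg sham hearts, with 4 called lower. In TAC hearts they summed to 7.39 to 72.7 CPM in TG and to 2.72 to 158 CPM in ntg hearts, with 1 called lower. With the adipocyte level of each library added to the model, an alternative chosen after the data were seen, Cmya5 had a log2 fold change of -2.24 (SE 0.16) in sham hearts. The 6 endothelial markers summed to 915 to 1009 CPM in TG TAC and to 1064 to 1145 CPM in ntg TAC hearts, with 5 called lower. The 6 macrophage markers summed to 181 to 232 CPM in TG TAC and to 236 to 274 CPM in ntg TAC hearts, also with 5 called lower. In sham hearts 1 endothelial and 2 macrophage markers were called lower. Of 7 fibroblast markers 2 were called lower in each operation, and of 5 smooth muscle markers 1 was called lower in sham hearts. The part of these cell types in the loss of Cmya5 was not tested. Markers of skeletal muscle, where myospryn is also made, summed to between 2.03 and 4.88 CPM in any mRNA library.

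Sex-linked RNA differed with the operation, although all mice are labelled male. Xist, which silences an X chromosome in females, averaged 1.51 CPM in TG TAC and 1.71 CPM in ntg TAC hearts, but 133 CPM in TG sham and 130.0 CPM in ntg sham hearts. A set of 4 genes of the Y chromosome summed to 104 and 94.1 CPM in TG TAC and ntg TAC hearts, and to 0.477 and 2.53 CPM in TG sham and ntg sham hearts. The TAC and sham hearts are also named differently in the tables of the whole series, which mark the sham hearts as without surgery. Any difference between TAC and sham below therefore cannot be told apart from these differences.

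The effect of pressure overload on Cmya5 was not part of the choice of the gene and was tested. In ntg hearts Cmya5 was somewhat lower after TAC, without passing the threshold, and in TG hearts no shift was detected. In mRNA, TAC minus sham was 0.02 on the log2 scale in TG hearts (SE 0.10, 95% interval -0.19 to 0.23, adjusted p = 0.935). In ntg hearts it was -0.28 (SE 0.10, 95% interval -0.48 to -0.07, adjusted p = 0.0549). Among all genes, 13.1% were called in TG and 17.7% in ntg hearts by the same edgeR test. All 7 ntg TAC hearts were below all 3 ntg sham hearts in mRNA, while TG TAC and TG sham hearts overlapped. The share of all genes that part the operations in this way was not counted.

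The ntg difference sat at the edge of the threshold. It passed when only the groups compared were fitted (adjusted p = 0.0271), and without TG sham replicate 3 (0.0368), TG TAC replicate 4 (0.0440) or ntg TAC replicate 2 (0.0459). Leaving out 1 library at a time, it stayed above the threshold in 17 of 20 fits (adjusted p up to 0.151). With the adipocyte level as a covariate it was -0.15 (adjusted p = 0.535). In RISC libraries TAC minus sham was -0.08 in TG (SE 0.12, 95% interval -0.31 to 0.16, adjusted p = 0.751) and -0.31 in ntg hearts (SE 0.11, 95% interval -0.54 to -0.08, adjusted p = 0.0755), beside 8.56% and 10.9% of genes called. The TG and the ntg RISC groups each overlapped between operations. Without ntg sham replicate 1 the ntg RISC difference was -0.46 (adjusted p = 0.0189), and without ntg TAC replicate 7 it was -0.36 (adjusted p = 0.0461). In 18 of 20 such fits it did not pass (adjusted p up to 0.365). It passed in none of 8 other settings (adjusted p from 0.0634 to 0.609).

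The loss in TG hearts was compared between operations by its size. The transgene effect in TAC hearts minus that in sham hearts was 0.23 in RISC (SE 0.17, 95% interval -0.10 to 0.57). In mRNA it was 0.29 (SE 0.14). The gene was chosen for a strong loss in TG hearts of both operations, which favours losses of like size. This difference is therefore given without a test. In edgeR's interaction test, of the same difference, 0.342% of all genes were called in RISC and 0.0849% in mRNA. The 95% interval of Cmya5 in mRNA ran from -0.000805 to 0.59, so its lower end lay almost at 0.

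**Figure D2:**
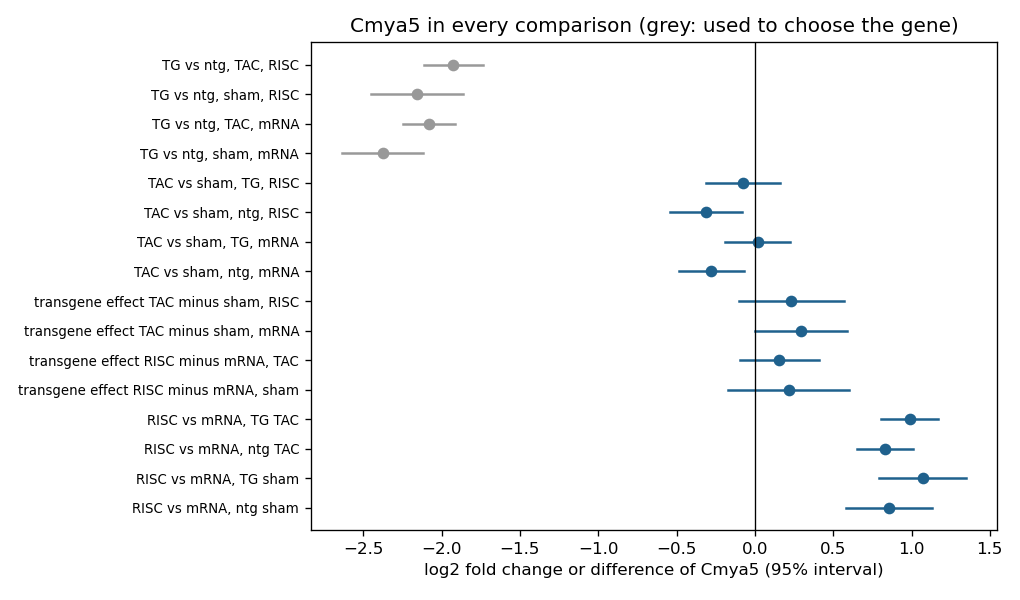
Log2 fold change or difference of Cmya5 (x axis) with its 95% interval (lines) in each comparison (rows). Grey rows, from -2.38 to -1.92, are those the gene was chosen by; of the blue rows the RISC against mRNA ratios, from 0.83 to 1.07, lie farthest from 0.

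RISC libraries held more Cmya5 relative to other genes than mRNA libraries did, in every group. For this, all 40 libraries were scaled and fitted together, since levels scaled within 1 kind cannot be set against the other. RISC over mRNA was 0.99 on the log2 scale in TG TAC (SE 0.09, adjusted p = 8.39e-14), 0.83 in ntg TAC (SE 0.09, adjusted p = 1.2e-11), 1.07 in TG sham (SE 0.14, adjusted p = 3.05e-09) and 0.86 in ntg sham hearts (SE 0.14, adjusted p = 4.23e-07), all by edgeR. Such a ratio is common: 35.6%, 35.9%, 30.4% and 29.2% of 14372 genes were called higher in RISC in these groups. Cmya5 was above 82.9% of genes in TG TAC, 77.7% in ntg TAC, 83.7% in TG sham and 79.5% in ntg sham hearts.

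Long genes had higher ratios throughout, and Cmya5 is longer in exon sequence than 99.0% of genes. Across genes, which are not independent replicates, the ratio rose with exon length (Spearman rho 0.64 in TG TAC, 0.65 in ntg TAC, 0.62 in TG sham and 0.63 in ntg sham hearts). The part of length in the ratio of Cmya5 was not tested. The slope of log2 level on log2 length ran from 0.360 to 0.483 in the 7 TG TAC and from 0.489 to 0.599 in the 7 ntg TAC RISC libraries, so it moved with genotype there. With that slope in the model, an alternative added once the data had been seen, the RISC log2 fold change of Cmya5 in TAC hearts was -2.05 (SE 0.16).

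The sizes of the loss in RISC and in mRNA were also set side by side. The transgene effect on Cmya5 in RISC minus that in mRNA was 0.16 in TAC hearts (SE 0.13, 95% interval -0.10 to 0.41) and 0.22 in sham hearts (SE 0.19, 95% interval -0.17 to 0.60). The gene was chosen for a strong loss in both kinds of library, which favours losses of like size, so this difference is given without a test. In edgeR's test of the same difference 0.946% of all genes were called in TAC and 0.244% in sham hearts. The heart by heart ratio, after leaving out the abundant Rn45s transcript, ran from 0.90 to 1.10 in TG TAC and from 0.35 to 1.04 in ntg TAC hearts, and from 0.95 to 1.38 in TG sham and from 0.39 to 0.97 in ntg sham hearts. These ranges overlapped in both operations.

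Across the 7 TG TAC hearts, those with more Cmya5 in mRNA had more in RISC. Pearson's r of log2 CPM was 0.895 (exact permutation p = 0.00397, adjusted over the pair of groups 0.00794) and Spearman's rho was 0.929 (exact permutation p = 0.00675, adjusted 0.0135), both two-sided. Without the 2 hearts farthest from the median mRNA level, r was 0.857 over 5 hearts (exact permutation p = 0.0583), and without TMM scaling it was 0.336 (exact permutation p = 0.465). The relation thus did not hold without that scaling. In the 7 ntg TAC hearts r was 0.311 (exact permutation p = 0.480) and rho 0.464 (exact permutation p = 0.302). Without ntg TAC replicate 3, which had 855 CPM in mRNA but the lowest RISC level of its group, r was 0.849 over 6 hearts (exact permutation p = 0.0361). Sham groups had too few hearts for a correlation.

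**Figure D3:**
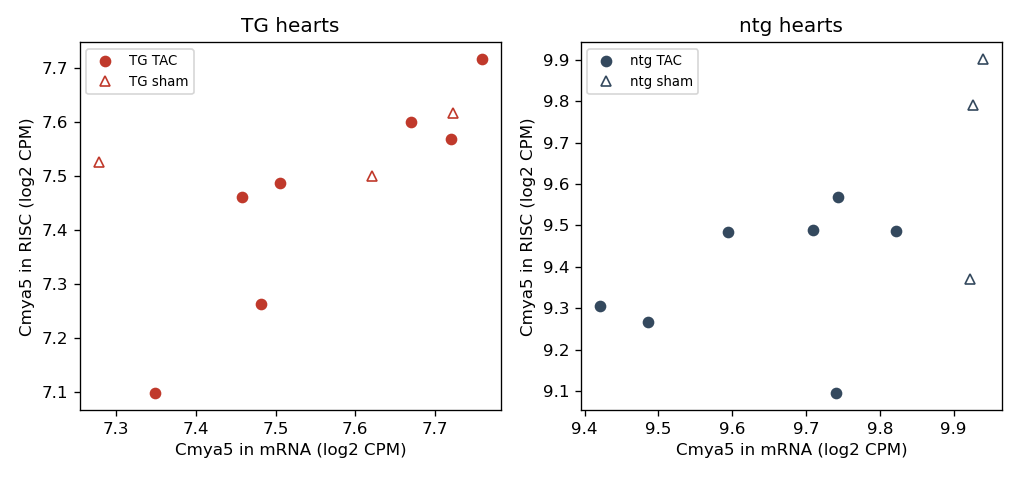
Cmya5 in mRNA (x axis) against RISC (y axis), both log2 CPM, with 1 point per heart; TG hearts are on the left and ntg hearts on the right, on different scales, with filled circles for TAC and open triangles for sham. The TG TAC points rise together (r 0.895), and in ntg TAC 1 heart, replicate 3, lies below the rest.

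No gene beside Cmya5 on the chromosome had a loss of similar size. Papd4, a cytoplasmic poly(A) polymerase 2.68 kb beyond its 5′ end, averaged 1.09 ± 0.211 CPM in TG TAC and 1.12 ± 0.152 CPM in ntg TAC hearts (SD, n = 7 each), with a log2 fold change of -0.03 in TAC (edgeR adjusted p = 0.966) and -0.02 in sham hearts (edgeR adjusted p = 0.969). Homer1, a scaffold of synapses and calcium channels 160 kb away on the same side, was higher in TG TAC (0.30, SE 0.06, adjusted p = 0.00121) and at -0.09 in sham hearts (adjusted p = 0.593). Jmy, an actin nucleator 285 kb away on that side, was lower in TAC (-0.22, SE 0.06, adjusted p = 0.0108) and in sham hearts (-0.58, SE 0.09, adjusted p = 0.000119). On the other side, Mtx3, a mitochondrial import protein, was at 0.00 in TAC and 0.11 in sham hearts (adjusted p = 0.989 and 0.603). Thbs4, a matrix thrombospondin 246 kb away, was higher in TAC (1.00, SE 0.17, adjusted p = 0.000276) and in sham hearts (1.07, SE 0.28, adjusted p = 0.0126). Serinc5, a membrane protein 329 kb away, was at -0.02 in TAC and 0.23 in sham hearts (adjusted p = 0.863 and 0.167).

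Thus 3 of 6 neighbours were called in TAC mRNA and 2 of 6 in sham mRNA, beside 25.3% and 18.6% of all genes, and none was lower by as much as Cmya5.

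**Figure D4:**
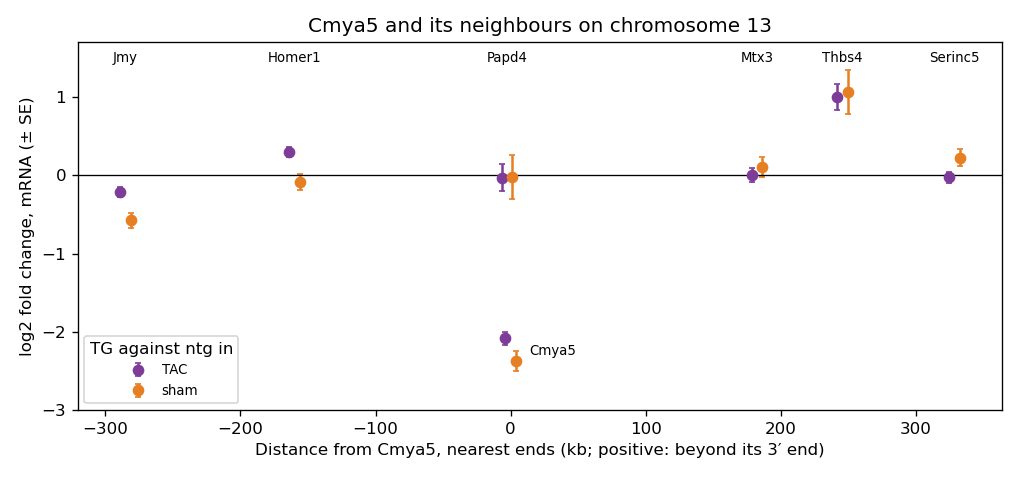
Log2 fold change of TG over ntg in mRNA (y axis, points with SE bars) against distance in kb from the nearest end of Cmya5 (x axis, positive beyond its 3′ end), in TAC (purple) and sham hearts (orange); Cmya5 is labelled beside its own points. Cmya5 lies at -2.08 and -2.38, while its 6 neighbours lie between -0.58 and 1.07.

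Of the 87 genes in lists drawn around myospryn, 85 were tested in mRNA. In TAC hearts 13 were higher and 16 lower in TG, which is 34.1% called beside 25.3% of all genes. In sham hearts 10 were higher and 20 lower, 35.3% beside 18.6%. With the adipocyte covariate the sham count was 13 in place of 30. In RISC, of 83 tested, 9 were higher and 16 lower in TAC (30.1% beside 15.2% of all genes), and 4 were higher and 8 lower in sham libraries (14.5% beside 5.81%). That last count was 5 to 7 when any 1 of the ntg sham libraries, TG sham replicate 2 or TG sham replicate 3 was left out. With the length slope in the model, again a later addition, 2 were called in TAC RISC in place of 25. The share of all genes called in these other fits was not counted, so the drops cannot be read against it. In mRNA none of the listed genes had a fold change as large as that of Cmya5, apart from Prkar2b in sham hearts.

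Genes of the proteins that bind myospryn went both ways. Of 12, 3 were higher and 3 lower in TG TAC mRNA (50% called, beside 25.3% of all genes). In TG sham mRNA 2 were higher and 5 lower (58.3%, beside 18.6%). The median log2 fold change of the list was 0.05 in TAC and -0.17 in sham mRNA, beside -0.00 and -0.01 over all genes. Ttn, the giant spring of the sarcomere, averaged 8272 ± 1068 CPM in TG TAC and 11145 ± 928 CPM in ntg TAC hearts (SD, 7 hearts each). Its log2 fold change was -0.43 (SE 0.08, edgeR adjusted p = 0.000439). It was at -0.72 in sham hearts (SE 0.13, edgeR adjusted p = 0.000288). Prkar2a, the protein kinase A subunit that myospryn anchors, was lower in TAC (-0.38, SE 0.08) and in sham hearts (-0.55, SE 0.12). Dtnbp1, which encodes dysbindin, was at -0.14 in TAC (adjusted p = 0.0276) and -0.31 in sham hearts (adjusted p = 0.00485). In RISC, 3 partners were higher and 2 lower in TG TAC libraries (41.7% called, beside 15.2% of all genes). Ttn (-0.44) and Prkar2a (-0.41) were the lower ones, and Actn2 (0.34), Dtnbp1 (0.32) and Des (0.26) the higher ones. For Dtnbp1 and Des the mRNA and RISC estimates in TAC hearts thus had opposite signs. The transgene effect in RISC minus that in mRNA was 0.47 for Dtnbp1 (SE 0.11, edgeR adjusted p = 0.0148) and 0.36 for Des (SE 0.12, edgeR adjusted p = 0.128). The slope of RISC level on exon length moved with genotype in TAC libraries, and its part in these RISC values was not tested.

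Capn3, the muscle protease calpain 3, rose in TG hearts, with a log2 fold change of 0.54 in TAC (SE 0.10, edgeR adjusted p = 0.000396) and 0.60 in sham hearts (SE 0.16, edgeR adjusted p = 0.00946). Jph2, which ties the dyad membranes together, rose as well (0.32 in TAC and 0.37 in sham hearts). The calcineurin subunit gene Ppp3cb was called higher in TAC only, at 0.21, against 0.15 in sham hearts (edgeR adjusted p = 0.306). Des, the desmin filament, was called lower in sham only, at -0.38, against -0.10 in TAC hearts (adjusted p = 0.374). Ryr2, the cardiac ryanodine receptor, was likewise called lower in sham only, at -0.29, against -0.13 in TAC hearts (adjusted p = 0.110). None of these differences between operations passed the interaction test (adjusted p from 0.516 to 0.927). Fsd2, the gene of minispryn and the closest relative in the list, was at 0.20 in TAC and 0.18 in sham hearts (adjusted p = 0.0563 and 0.309), and Actn2, alpha-actinin, was at 0.13 and 0.29 (adjusted p = 0.209 and 0.0798).

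**Figure D5:**
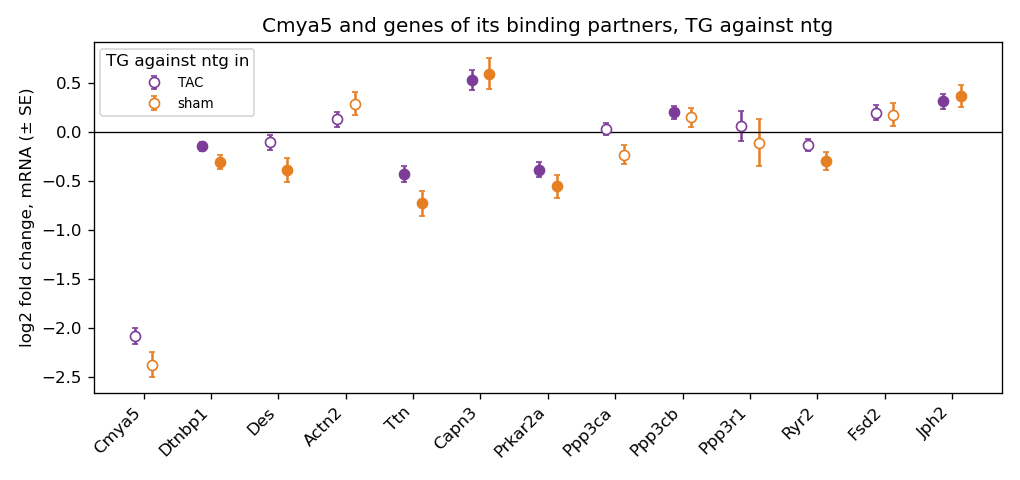
Log2 fold change of TG over ntg in mRNA (y axis, points with SE bars) of Cmya5 and 12 genes of its binding partners (x axis), in TAC (purple) and sham hearts (orange). Filled points were called by edgeR, open ones were not or, for Cmya5, were not tested; the partners lie between -0.72 and 0.60, Cmya5 at -2.08 and -2.38.

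Mef2a, the gene of the known activator, was at -0.00 in TAC and 0.05 in sham mRNA on the log2 scale (edgeR adjusted p = 0.966 and 0.670). In the list of 8 MEF2 factors and the deacetylases that restrain them, 2 were called in TG TAC mRNA (25.0%, beside 25.3% of all genes) and 3 in TG sham mRNA (37.5%, beside 18.6%), all higher. In RISC none of the 7 tested was called in either operation by edgeR. Hdac5 rose in both (0.20 in TAC, adjusted p = 0.0349, and 0.39 in sham hearts, adjusted p = 0.0127). Hdac4 was called in TAC hearts (0.31, adjusted p = 0.0257), and Hdac9 (0.39, adjusted p = 0.0137) and Mef2c (0.31, adjusted p = 0.0156) in sham hearts, with Mef2c at 0.15 in TAC (adjusted p = 0.0505).

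Of 10 calcineurin signalling genes, 1 was higher and 4 lower in TAC mRNA (50% called, beside 25.3% of all genes). In sham mRNA 3 were lower (30%, beside 18.6%). The median of the list was -0.08 in TAC and 0.05 in sham hearts. Myoz2, the Z-disc inhibitor calsarcin-1, was at -0.47 in TAC (adjusted p = 7.39e-06) and -0.64 in sham hearts (adjusted p = 4.72e-05). Rcan2, another calcineurin regulator, was at -0.31 and -0.62 (adjusted p = 0.000133 and 1.1e-05), and the transcription factor gene Nfatc3 at -0.27 and -0.45 (adjusted p = 0.00136 and 0.000972). Rcan1, a target of calcineurin signalling as well as its inhibitor, was called higher in TAC hearts (0.53, adjusted p = 0.0354) and was at 0.69 in sham hearts (adjusted p = 0.0847).

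Of 13 genes of protein kinase A and its anchors, 1 was higher and 4 lower in TAC mRNA (38.5% called, beside 25.3% of all genes). In sham mRNA 1 was higher and 3 lower (30.8%, beside 18.6%). Akap6, the anchor of the nuclear envelope and the dyad, was lower in both (-0.22 and -0.46, adjusted p = 0.0181 and 0.003). Akap5 was lower in TG TAC (-0.71, adjusted p = 0.000642), and Prkar1b was higher there (0.52, adjusted p = 0.0249). Prkar2b, which encodes a kinase subunit of fat and brain, was at -2.38 in sham hearts (SE 0.58, adjusted p = 0.0078) and -0.59 in TAC hearts (adjusted p = 0.302). It averaged 1.29 ± 0.169 CPM in TG sham and 6.70 ± 2.53 CPM in ntg sham hearts (SD, n = 3 each), the group with the high adipocyte markers.

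Of the 12 genes in the dyad list, which leaves out Jph2 and Ryr2 because they stand among the partners, 2 were lower in TG TAC mRNA (16.7% called beside 25.3% of all genes) and 4 in TG sham mRNA (33.3% beside 18.6%). In RISC, 5 of 11 were lower in each operation (45.5%, beside 15.2% of all genes in TAC and 5.81% in sham libraries). No gene of the list was called higher in these 4 comparisons, while Jph2, a dyad gene as well, was called higher in mRNA. Over all lists together, TAC RISC calls fell from 25 to 2 with the length slope in the model. In sham RISC they fell from 12 to as few as 5 when 1 library was left out. Dyad genes alone were not counted in those fits. Casq2, the calcium store of the sarcoplasmic reticulum, was at -0.40 in TAC and -0.73 in sham mRNA (edgeR adjusted p = 3.72e-05 and 7.71e-06). Asph, from which junctin is made, was at -0.23 and -0.37 (adjusted p = 0.00819 and 0.00898). Atp2a2, the calcium pump, was at -0.15 in TAC (adjusted p = 0.123) and -0.41 in sham hearts (adjusted p = 0.00873), and its inhibitor Pln was at -0.09 (adjusted p = 0.495) and -0.45 (adjusted p = 0.0183).

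The remaining lists were mixed. Of 10 genes of the dystrophin complex, 3 were higher and 1 lower in TAC mRNA (40% called, beside 25.3% of all genes). In sham mRNA 2 were higher and 3 lower (50%, beside 18.6%). Sgcd, a sarcoglycan, was at 0.41 in both (adjusted p = 0.00291 in TAC and 0.0623 in sham). Dtna was called lower and Sntb1 higher in sham hearts (-0.44, adjusted p = 0.0116, and 0.53, adjusted p = 0.0426). In the list of 7 M-band genes, Myom1 was lower in TAC and in sham hearts (-0.34 and -0.54, adjusted p = 0.000269 and 0.000365), and Myom3 was higher in TAC (0.42, adjusted p = 0.00668). Bloc1s6, a subunit of the complex that holds dysbindin, was the 1 gene of 6 tested that was called there, at 0.48 in TAC and 0.46 in sham hearts (adjusted p = 3.05e-06 and 0.0015). That is 16.7% in each operation, beside 25.3% of all genes in TAC and 18.6% in sham hearts. Among relatives of myospryn, Fsd1l was higher (0.76 and 0.80, adjusted p = 2.06e-06 and 0.00038) and the muscle ring finger gene Trim55 lower (-0.39 and -0.49, adjusted p = 2.24e-05 and 0.000365).

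The genes whose level was most like that of Cmya5 were looked up over the 20 mRNA libraries, among the 10160 genes that averaged 5 CPM or more. The highest Pearson's r of log2 CPM were those of Wbp2 (0.988), Pcbp2 (0.985), Nacc2 (0.979), Hspb6 (0.978) and Rragd (0.975), and the lowest those of Ndrg4 (-0.988), Pbxip1 (-0.982) and Bche (-0.972). Over the 20 RISC libraries, among 7923 genes, Rragd (0.959), Phyhd1 (0.937), Adra1a (0.933), Trp53inp2 (0.931) and Tmem245 (0.931) were highest, and Ndrg4 (-0.969), Dynll1 (-0.942) and Nmrk2 (-0.935) lowest. Rragd and Ndrg4 stood in both rankings. These values follow the split between genotypes, which all 20 libraries share, and carry no test.

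These genes differed in how far apart the genotypes were. Wbp2, a WW-domain binding protein, averaged 72.1 ± 3.94 CPM in TG TAC and 149 ± 5.29 CPM in ntg TAC hearts (SD, n = 7 each), a log2 fold change of -1.04. Hspb6, a small heat shock protein of muscle, had the larger loss, with 275 ± 57.8 CPM in TG TAC and 1919 ± 177 CPM in ntg TAC hearts, a log2 fold change of -2.80, but in RISC its log2 fold change was -0.98 where that of Cmya5 was -1.92. Ndrg4, the mirror of Cmya5, was at 278 ± 49.1 CPM in TG TAC and 69.1 ± 6.88 CPM in ntg TAC hearts (log2 fold change 2.01).

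Within a genotype the likeness of the first of these genes was weaker. Over ntg hearts alone r was 0.647 for Wbp2, 0.815 for Pcbp2 and -0.757 for Hspb6, and over TG hearts alone 0.0762, 0.751 and 0.768. After the mean of each group was subtracted, genes closest to Cmya5 over the 20 mRNA libraries included Ubr7 (r 0.855), Gpr116 (0.854), Slc44a1 (0.837) and Apmap (0.829). None of these 4 moved with genotype as Cmya5 did: their log2 fold changes lay between -0.23 and 0.10 in TAC hearts and between -0.45 and 0.12 in sham hearts.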

How the data were processed

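The labels name 20 hearts with an mRNA and a RISC library each. Mouse build mm10 and the tools TopHat2 2.0.10, TopHat, Bowtie2, HTSeq, edgeR and DESeq appear in the submitters' processing notes, with no roles given. The values used are whole read counts per gene, as the authors deposited them for each library, not normalized. Each file has 5 rows that name no gene, which were left out (10.1 to 15.8% of reads in mRNA, 2.57 to 6.20% in RISC). The 40 columns of the tables for the whole series were not used. Gene positions and exon lengths come from the gene models the authors deposited, and the promoter window from RefSeq (GRCm38.p6).

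Counts were filtered with filterByExpr, scaled with TMM and fitted with robust quasi-likelihood models in edgeR 4.0.16 (R 4.3.3, limma 3.58.1), with all groups of a kind in 1 fit and all 40 libraries for RISC against mRNA. Adjusted p-values are Benjamini-Hochberg values over every gene tested, and a call is an adjusted p below 0.05. CPM and log2 values were computed here from the deposited counts, with a prior count of 2 on the log2 scale. The models were tested on simulated counts with known changes. Alternatives were DESeq2 1.42.0, other scaling and filters, blocks by replicate number and leaving out each library.

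The gene, the lists and the markers were chosen with earlier results of these data known. Named were Cmya5, its 3 nearest genes on each side and those inside its span, called members of the lists of partners, MEF2 factors and relatives, up to 4 called members of each other list (those of the largest mRNA fold change), and the genes most and least correlated with it (5 and 3, and 5 after subtracting group means). Fsd2, Actn2 and Mef2a were chosen after their values were seen. Some genes that this rule takes are not reported here.

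The same animal code joins the mRNA and RISC library of a heart. Residuals of these pairs correlated above 0.1 in 15 of 20 hearts (median 0.174). Nothing in the labels ties the hearts of different groups with the same number. P-values and intervals cover the spread between these hearts only.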

Additional observations from a re-analysis of the deposited data

Results flagged for a closer look

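In 7 of 126 groups of 7 hearts the highest or lowest heart lay farther from its nearest neighbour than Dixon's critical share of the range (0.568) allows. Chance flags about 1 in 20 such groups. The log2 ratio of Cmya5 in RISC over mRNA was 0.353 in ntg TAC replicate 3, below the other 6 hearts of that group. In mRNA, Ttn was low in ntg TAC replicate 1, at 9200 CPM (9199.73) beside 10877 to 11985 CPM in the other hearts. Ubr7 was also low there, at 24.6 CPM beside 27.8 to 30.2 CPM. Capn3 was low in ntg TAC replicate 3, at 5.66 CPM beside 6.78 to 7.56 CPM. Pbxip1 was high in ntg TAC replicate 5, at 168 CPM beside 146 to 153 CPM, and so was Myom3, at 7.34 CPM beside 4.87 to 5.86 CPM. Hdac4 was high in TG TAC replicate 7, at 46.6 CPM beside 33.1 to 37.1 CPM.

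In RISC the neighbour gene Mtx3 had a transgene effect that differed between operations, by -0.84 on the log2 scale (TAC minus sham, edgeR adjusted p = 0.023). It averaged 13.0 CPM in TG TAC and 14.7 CPM in ntg TAC libraries, and 21.9 CPM in TG sham and 13.9 CPM in ntg sham libraries.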

How the results depend on the processing

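Of 136 values under other settings than leaving out a library, 129 kept their direction and their side of the threshold, or their size for counts. The log2 fold change of Cmya5 in TG over ntg stayed between -2.47 and -1.87 under every setting run. TAC against sham in ntg mRNA was -0.27 (adjusted p = 0.0271) when only the groups compared were fitted, and -0.30 to -0.24 when each library was left out. In TG mRNA it was -0.10 to 0.11 when each library was left out, negative without TG sham replicate 3 or TG TAC replicate 1, 2 or 3 and positive otherwise. In ntg RISC it was -0.46 to -0.22. The listed genes called in sham RISC numbered 5 to 15 when each library was left out, below the main count by over 1.5 times without any of the 3 ntg sham libraries or without TG sham replicate 2 or 3. They numbered 13 in sham mRNA with the adipocyte level in the model, and 2 in TAC RISC with the length slope in it. The share of all genes called in those fits was not counted. The correlation of mRNA and RISC levels in TG TAC hearts was 0.857 without the 2 farthest hearts and 0.829 to 0.942 without each heart. It was 0.336 without TMM and with Rn45s in the total. In ntg TAC hearts it was -0.0841 without the 2 farthest hearts, and 0.195 to 0.849 without each heart. The causes were not tested. The interaction needs all 4 groups, so no fit of fewer groups was made for it.

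With the replicate block, TAC against sham was 0.0819 in TG RISC (adjusted p = 0.820), the opposite sign of the unblocked value, and -0.27 in ntg mRNA (adjusted p = 0.161). The block called 31 listed genes in sham mRNA, and the share of all genes it called was not counted. The median r of residuals between TG and ntg hearts of the same number was -0.04 in sham mRNA, 0.02 in TAC mRNA and 0.0815 in sham RISC. In TAC RISC it was 0.114, with all 7 pairs between 0.0519 and 0.192 and 4 of 7 above 0.1. In no comparison were all pairs above 0.1, and the labels tie no hearts across groups, so the numbers were not taken as pairs. With the heart as the block, RISC over mRNA was 0.98 in TG TAC hearts, and no call on Cmya5 changed.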
